A study of Mus musculus with 288 samples.

Results

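The genes described here belong to the machinery that docks, primes and fuses secretory vesicles. They were chosen by the start of their symbol (Syt, Stx, Vamp, Cplx, Rab3, Rab27, Unc13, Rims or Cadps), with Snap23, Snap25 and Snap29 added. The rule found 93 of the 46078 mouse genes counted, of which 91 are protein-coding and 2 are pseudogenes (Stxbp3-ps and Vamp7-ps). The prefixes also catch relatives with other roles, and these are kept apart below: 12 genes from Rab30 to Rab39, 4 partners of Rab3, 8 syntaxin-binding genes and 5 synaptotagmin-like genes. Single cells were sorted from the upper small intestine of 3 male GLU-Venus mice on a C57BL6 background, aged 20 to 21 weeks, and each was sequenced by Smart-seq2, a full-length protocol without molecular identifiers. In these mice the proglucagon promoter drives the fluorescent protein Venus, so that the sort favours cells in which that promoter is active. No treatment is named. Every one of the 288 cells is labelled an L-cell, the classical name of a gut endocrine cell that makes glucagon-like peptides, and the labels add the sequencing pool (3 pools of 96 cells) but neither mouse nor fluorescence. Pools are taken as the 3 animals. Non-fluorescent control cells were also sorted by the study's methods, and the labels do not single them out. The paper describes the cells of its deeply sequenced mouse, taken here as pool SLX-9703, as Venus-positive. Control cells would then lie in the other pools only, so the hormone-poor cells described below may differ in kind between pools.

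Hormone-secreting cells release peptides from dense-core granules when calcium enters the cell. Fusion is driven by SNARE proteins, in which a VAMP on the granule zips together with a syntaxin and a SNAP-25-type protein on the plasma membrane. Syntaxin-binding proteins and Munc13 (Unc13 genes) help these complexes to form, CAPS (Cadps genes) primes dense-core granules, synaptotagmins sense calcium, complexins clamp and then assist fusion, and Rab3 and Rab27 are small GTPases on the granule that link it to effectors such as RIM (Rims genes). Most of these families have several members, and which member a cell uses differs between neurons, endocrine cells and blood cells.

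Of the 288 cells, 250 had at least 20000 reads on mouse genes and at most 20% mitochondrial reads. They were put into classes by hormone and marker level in CPM, the reads of a gene scaled to a fixed total of mouse gene reads: 53 Gcg cells (proglucagon at 10000 CPM or more), 25 Gip cells (the incretin GIP at 10000 CPM or more) and 64 Pzp cells (Pzp, a protease inhibitor of the alpha-2-macroglobulin family, at 100 CPM or more). The remaining cells were 55 other hormone cells, whose 9 summed hormone transcripts reached 10000 CPM, and 48 hormone-poor cells, and 5 cells past 2 thresholds were left out. No member took part in this choice. Counts were summed per class and pool. Sums held 420453 to 58925336 reads, and pool SLX-9703 was far deeper (median 1975706 reads per cell) than SLX-11175 (52571) and SLX-11179 (70726). Below, 3 values in a row are always in the order SLX-11175, SLX-11179, SLX-9703, and levels are CPM of the class sum after TMM scaling. Each class has 3 sums, whose spread is that between pools. The 7 endocrine markers (Chga, Chgb and others) together reached 1703 to 24134 CPM in the 9 sums of Gcg, Gip and Pzp cells and 60.4 to 282 CPM in the hormone-poor sums, so that the label L-cell was not borne out by these markers in the hormone-poor cells. These cells were a mixture: 7 markers of leukocytes summed to between 1280 and 3188 CPM there, against at most 216 CPM in the other classes, and 4 and 3 cells of the shallow pools had at least 100000 CPM of plasma cell genes. Gip cells were shallower than Gcg and Pzp cells in the deep pool, with a median of 831266 reads and 6842 genes per cell (732734 reads and 6898 genes in hormone-poor cells), against 2400022 reads and 9650 genes in Gcg cells and 2147106 reads and 9626 genes in Pzp cells. Gip itself spanned 10822 to 610612 CPM in its class, with 14 of 25 cells at or above 100000 CPM.

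Of the 93 members, 3 had no read in the 9 sums of Gcg, Gip and Pzp cells (Rab33a, Rims4 and Syt9), and 26 had fewer than 100 reads. Levels of different genes can be compared only per length, and the mean over the 9 sums was therefore divided by the exon length. Over the 3 classes Rab3d was at 25, Vamp3 at 23.8, Syt13 at 23.1, Vamp8 at 22 and Cplx2 at 21.8 CPM per kilobase. The leaders differed between classes: Syt13 was at 32.6 and Cplx2 at 25.1 CPM per kilobase in Gcg cells, Rab3d at 32.7 and Syt5 at 26.3 in Gip cells, and Vamp8 at 32.7 and Vamp3 at 31 in Pzp cells. Among the syntaxins, Stx1a, the plasma membrane syntaxin of neurons and endocrine cells, was at 14.4 and Stx7, an endosomal syntaxin, at 17.2 CPM per kilobase. Stxbp2, a syntaxin-binding protein of epithelia and blood cells, was at 14.9 CPM per kilobase. In the SNAP-25 family Snap25 was at 12.6, Snap23, its non-neuronal relative, at 2.04 and Snap29 at 1.68 CPM per kilobase.

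**Figure D1:**
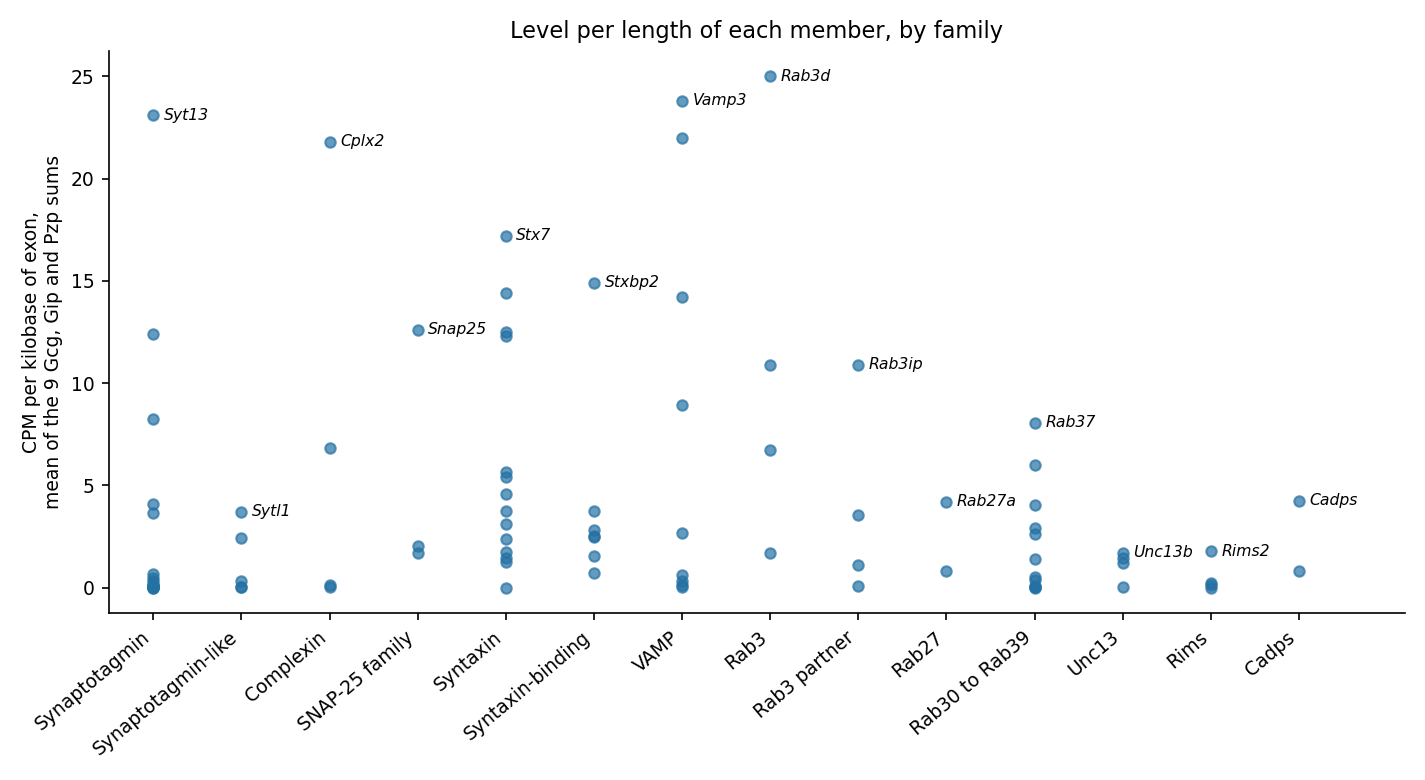
Level per length of 91 of the 93 members, in CPM per kilobase of exon (vertical axis), by family (horizontal axis). Each point is 1 gene and its mean over the 9 sums of Gcg, Gip and Pzp cells, with the highest member of each family named. Rab3d, Vamp3 and Syt13 have the highest means over the 3 classes together, while no member of the Rims and Unc13 families passed 1.78 CPM per kilobase.

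Some members known best from nerve terminals were low, and 4 markers of neurons and glia summed to at most 40.3 CPM in these sums. Syt1, the fast calcium sensor of synapses, was at 0.0952 CPM per kilobase and at no more than 1.96 CPM in any of the 9 sums. The RIM genes were led by Rims2 (1.78) and Rims3 (0.23), with Rims2 resting on 1 sum: its levels in Gcg cells were 97.6, 9.67 and 12.1 CPM. Sytl4 (granuphilin), an effector of Rab27 on insulin granules, had reads in 1 of the 9 sums only, at 0.437 CPM. The synaptotagmin-like genes were led by Sytl1 (3.71) and Sytl5 (2.43), Rab27 by Rab27a (4.19) over Rab27b (0.815), the Unc13 genes by Unc13b (1.7) over Unc13a (1.46), Cadps (4.25) exceeded Cadps2 (0.807), and the Rab3 partners were led by Rab3ip (10.9), a guanine nucleotide exchange factor, and Rab3gap1 (3.56), a subunit of the Rab3 GTPase-activating complex. Among the genes from Rab30 to Rab39, which are not Rab3 isoforms, Rab37 (8.05) and Rab33b (5.99) led.

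**Figure D2:**
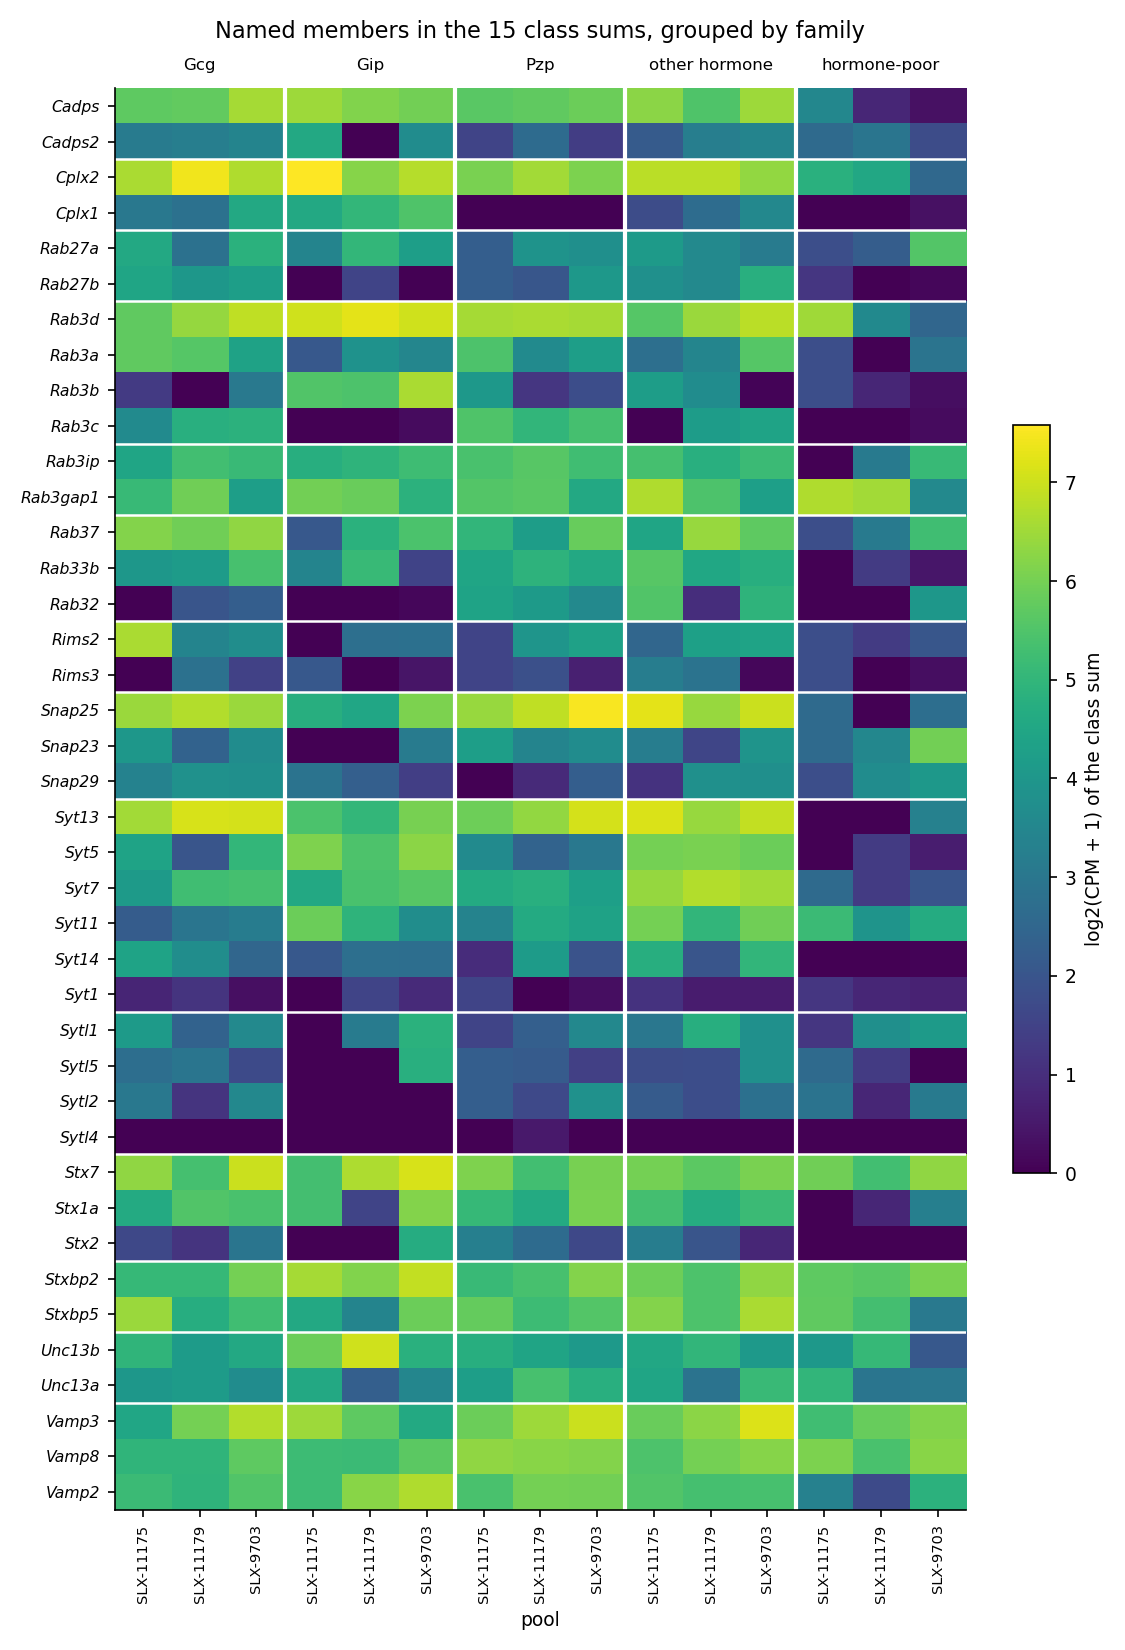
Level of each named member (rows, grouped by family) in the 15 class sums (columns, 3 pools in each of 5 classes), as log2(CPM + 1). Snap25, Syt13 and Cadps are low (dark) in the hormone-poor columns, Cplx1 in the Pzp columns and Rab3c in the Gip columns, while Stx7, Vamp3 and Stxbp2 are present (bright) in all classes. Cplx1 and Rab3c are low in the hormone-poor columns as well.

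The first comparison set the 3 hormone classes together against the hormone-poor cells, so that a call is a difference from that mixture. A link to hormone production itself was not tested. Snap25, Syt13, Syt7, Syt5, Cadps, Cplx2, Stx1a and Vamp2 were higher in the hormone classes, as were Rab3c, Rab33b, Syt14 and Stx2. Rab3a (adjusted p = 0.0622), Rab3b (0.14) and Rims2 (0.146) did not pass the test. In all, 13 of the 64 members that passed the filter on low counts were called higher and 0 lower, while 6.62% of the 11409 genes tested were called higher, 5.51% lower and 12.1% in either direction (quasi-likelihood test of edgeR, p adjusted over all genes by Benjamini-Hochberg). The median log2 fold change was 0.94 over the members and 0.00 over all genes tested, and 1.08 over the members when the 4 with a class at 0 in every pool are set to the fold of their summed reads. At an unadjusted p under 0.05 there were 23 members, of which 1 was lower, and 3028 of all genes, and DESeq2 called 19 higher and 0 lower (2433 of all genes in either direction, against 1384 with edgeR). The widely expressed relatives Stx7, Vamp3, Vamp8, Snap23, Stxbp2 and Stxbp5 were not called.

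Snap25 (ENSMUSG00000027273, chr2:136713453-136782428, plus strand of mm10) ranged from 21.6 to 182 CPM (median 85.3) in the 9 sums of the hormone classes. In hormone-poor cells it was at 5.14, 0 and 5.69 CPM. The groups did not overlap, at a log2 fold change of 4.5 (SE 0.67, adjusted p = 0.000271). Syt13, a synaptotagmin that does not bind calcium, ranged from 31.4 to 139 CPM (median 80.8) against 0, 0 and 9.07 CPM, with a log2 fold change of 4.62 (SE 0.74, adjusted p = 0.000518).

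Of the calcium sensors, priming factors and complexins, Syt7, Syt5, Cadps and Cplx2 were higher as well, while Unc13a (adjusted p = 0.746), Unc13b (0.186) and Unc13c (0.405) were not called. Syt7, a high-affinity sensor of slow granule release whose exons share 384 bases with the non-coding gene Gm26859 on the other strand, ranged from 16.5 to 48.2 CPM against 5.14, 1.5 and 2.9 CPM, with a log2 fold change of 3.32 (SE 0.59, adjusted p = 0.00124). Syt5 ranged from 3.02 to 76.7 CPM against 0, 1.5 and 0.536 CPM, with a log2 fold change of 4.93 (SE 0.91, adjusted p = 0.00174). Cadps (CAPS1) was at 49 to 92.9 CPM in the hormone classes against 10.3, 0.748 and 0.268 CPM, a log2 fold change of 4.95 (SE 0.91, adjusted p = 0.00175). Cplx2 ranged from 65.3 to 191 CPM against 27, 22.4 and 4.88 CPM (log2 fold change 2.74, SE 0.52, adjusted p = 0.00207). The TMM factors of the hormone-poor sums were 0.3419, 0.5831 and 1.527. Part of the difference between their 3 Cplx2 values lies in this scaling, so the pools are not ranked by them. In the deep pool 10 of 10 hormone-poor cells had a read of Cplx2, and 1 of them gave 45.1% of the reads. Cadps2 did not share the pattern of Cadps: it was at 0 to 22.7 CPM in the hormone classes and at 5.14, 6.73 and 2.36 CPM in hormone-poor cells.

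The SNARE partners of Snap25 were less even. Stx1a ranged from 1.96 to 71.5 CPM (median 38.9) against 0, 0.748 and 8.64 CPM, and the groups overlapped through the Gip sum of SLX-11179 (log2 fold change 3.67, SE 0.86, adjusted p = 0.0101). Vamp2 ranged from 29.6 to 101 CPM against 8.99, 2.24 and 28.5 CPM, with a log2 fold change of 2.12 (SE 0.57, adjusted p = 0.0225). Of the others called, Rab33b (log2 fold change 5.11, adjusted p = 0.00528), a Golgi Rab whose exons overlap Gm38160, and Syt14 (adjusted p = 0.0124) did not overlap between the groups, whereas Rab3c (adjusted p = 0.0155) did, because of the Gip sums. The lowest Syt14 value, 0.96 CPM in Pzp cells of SLX-11175, rests on 1 read. A floor of 3 reads in the hormone-poor sum of that pool is 3.56 CPM, so the groups cannot be called separate there. The lowest Rab33b value, 1.89 CPM in Gip cells of SLX-9703, lies under the same floor and under that of SLX-11179 (2.1 CPM). The groups cannot be called separate for Rab33b either. Stx2 had 942 reads in the hormone classes and none in the hormone-poor sums, which makes it at least 39.4-fold higher over the summed reads (adjusted p = 0.0405). Its deep sums held 438 (Gcg), 292 (Gip) and 186 (Pzp) of these reads, and the shallow Gip sums held 0. In the shallow pools the Gcg levels (2.15 and 1.21 CPM) lay under the 3-read floors of the hormone-poor sums (3.56 and 2.1 CPM). The fold is therefore not a bound for those pools, and the groups overlapped. A read was seen in 7 of 53 Gcg, 2 of 25 Gip and 9 of 64 Pzp cells.

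**Figure D3:**
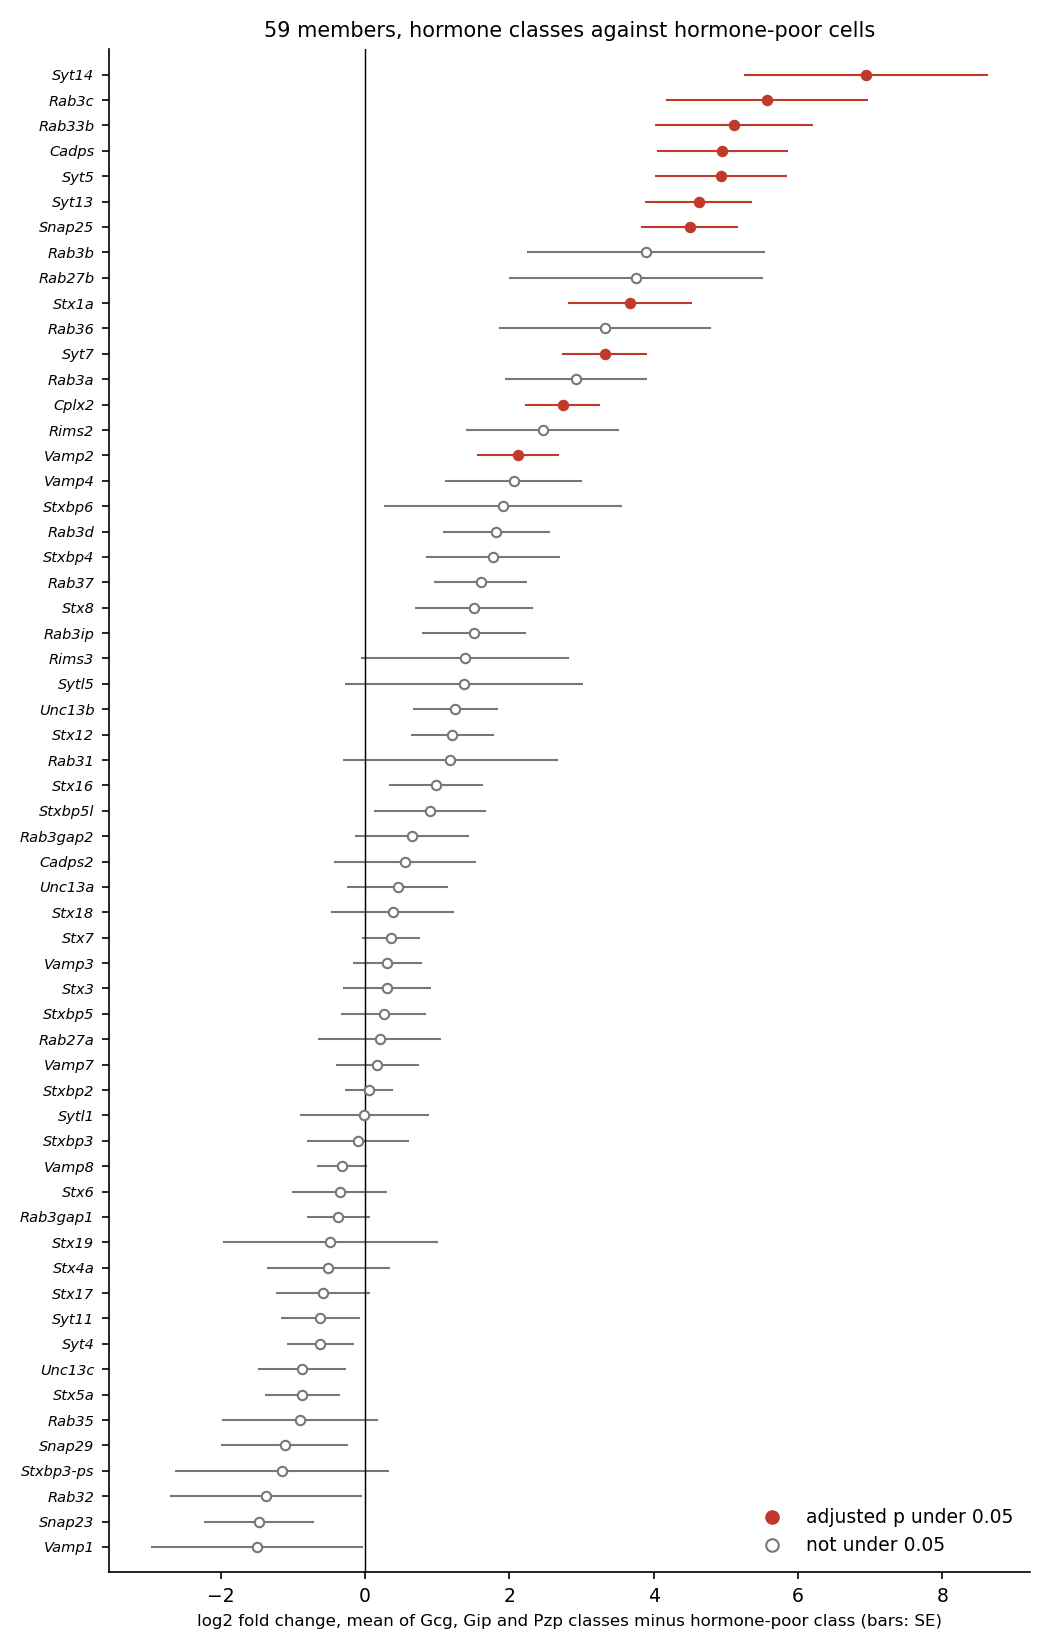
Log2 fold change of 59 members between the mean of the Gcg, Gip and Pzp classes and the hormone-poor class (horizontal axis, bars are SE). Filled points have an adjusted p under 0.05. The 4 members with a class at 0 in every pool (Cplx1, Rab39b, Stx2 and Sytl2) are not drawn, and all filled points lie to the right of 0.

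Levels in the hormone-poor class rest on a mixture, and some members were higher there in the deep pool. Stx11, a syntaxin of lymphocyte granules, was at 0, 0 and 56.2 CPM, and Unc13d (Munc13-4), which acts in the same granules, at 0, 6.73 and 35.2 CPM. Snap23 was at 5.14, 10.5 and 62 CPM and Rab27a at 2.57, 3.74 and 46.1 CPM. These deep levels came from few cells. Stx11 had a read in 4 of 10 deep hormone-poor cells, and its top cell gave 44.6% of the reads. For Unc13d, Snap23 and Rab27a the top cell gave 66.1%, 50.6% and 57.3%. Stx11 and Unc13d did not pass the filter on low counts and were not tested, and Snap23 (adjusted p = 0.235) and Rab27a (0.923) were not called. The 7 leukocyte markers were at 3188, 1280 and 2189 CPM in the same sums. The TMM factors of these sums (0.3419, 0.5831 and 1.527) differ so much that the order of the pools is not read from these levels. The 4 plasma cell markers were at 1478754, 773700 and 6.49 CPM, the first above the number of reads it is scaled to because the TMM factor of that sum is far below 1, and at most 324 CPM in the sums of the other classes. Their part in the members' levels was not tested. When 5, 3 and 3 hormone-poor cells with plasma cell or leukocyte markers were left out, a setting chosen after the data were seen, 11 members and 1175 of all genes were called. Stx1a (adjusted p = 0.111), Rab3c (0.0519), Vamp2 (0.123) and Stx2 (0.0705) were then no longer called, and Rab3d and Vamp4 were. Calls over all genes fell from 1384 to 965 without SLX-11175, 1009 without SLX-11179 and 591 without SLX-9703. Of the members, 7 were called higher and 1 (Sytl3) lower without SLX-11179, and 6 higher without SLX-9703. Snap25, Syt13 and Cadps kept their call without each pool. Their log2 fold changes then lay at 3.82 to 4.99, 3.98 to 9.32 and 3.59 to 7.76, in that order. Snap25 had an adjusted p of 0.106 with cells thinned to 20000 reads. Without SLX-11175, Stx1a (adjusted p = 0.0807), Syt14 (0.0632), Vamp2 (0.11) and Stx2 (0.114) were not called, and Unc13d was called lower. Without SLX-11179, Syt7 (0.0583), Stx1a (0.0576), Syt14 (0.0524), Rab3c (0.0947), Vamp2 (0.235) and Stx2 (0.0993) were not called, and without SLX-9703, Syt7 (0.0529), Syt5 (0.0737), Cplx2 (0.0517), Rab33b (0.0502), Syt14 (0.14), Rab3c (1) and Stx2 (1) were not. Cell by cell, with every cell thinned to 20000 reads, Snap25 was seen in 2 of 48 hormone-poor cells against 36 of 53 Gcg, 7 of 25 Gip and 48 of 64 Pzp cells, and 91.8% of its hormone-poor reads came from 1 cell. Syt13 was seen in 1 of 48 hormone-poor cells against 47 of 53 Gcg, 8 of 25 Gip and 41 of 64 Pzp cells.

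The second comparison set Gip cells against Gcg cells and parted 2 of the Rab3 isoforms. Rab3b was higher in Gip cells and Rab3c lower, and these were the only 2 of 60 members called, against 1.12% of the 9656 genes tested (0.394% higher and 0.725% lower). At an unadjusted p under 0.05 there were 14 members and 1236 of all genes. Rab3 proteins sit on granules, and the 4 isoforms are encoded by separate genes.

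Rab3b (ENSMUSG00000003411, chr4:108879063-108943324, plus strand, 317 exonic bases shared with the antisense gene 8030443G20Rik) was at 45.3, 43.2 and 96.6 CPM in Gip cells. In Gcg cells it was at 1.43, 0 and 7.34 CPM. All Gip sums were above all Gcg sums, and the log2 fold change was 4.73 (SE 1.08, adjusted p = 0.048). Rab3c (ENSMUSG00000021700, chr13:110054187-110280996, minus strand) was at 11.5, 26.6 and 28.6 CPM in Gcg cells. In Gip cells it was at 0, 0 and 0.172 CPM, from 2 reads in the deep pool. The groups were separate (adjusted p = 0.00954), and Gcg cells were at least 1.19-fold and 4.57-fold higher in the shallow pools and 166-fold higher in the deep pool, with a counting interval of 45.8 to 1370. The fitted log2 fold change (-7.17) of such a low gene depends on the prior count and is no bound.

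The stretches of 250 bases just before the start of both genes, and of Cplx1, are shown as examples of the members called between hormone classes. Syt5 and Rab32 were also called between such classes and are not shown. They are RefSeq promoters of GRCm38.p6, written 5′ to 3′ on the strand of the gene, and capitals mark GGGCGG (a GC box) or its reverse complement. RefSeq starts differ from the gene ends given above, and the Rab3c window lies within the longer GENCODE gene. The window of Rab3b is chr4:108878820-108879069 on the plus strand, that of Rab3c chr13:110280207-110280456 on the minus strand and that of Cplx1 chr5:108550028-108550277 on the minus strand.
Rab3b: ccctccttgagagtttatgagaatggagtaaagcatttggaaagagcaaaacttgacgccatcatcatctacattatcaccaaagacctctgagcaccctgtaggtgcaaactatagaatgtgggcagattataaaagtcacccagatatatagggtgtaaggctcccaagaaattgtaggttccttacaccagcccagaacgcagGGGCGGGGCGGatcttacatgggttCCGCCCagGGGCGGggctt
Rab3c: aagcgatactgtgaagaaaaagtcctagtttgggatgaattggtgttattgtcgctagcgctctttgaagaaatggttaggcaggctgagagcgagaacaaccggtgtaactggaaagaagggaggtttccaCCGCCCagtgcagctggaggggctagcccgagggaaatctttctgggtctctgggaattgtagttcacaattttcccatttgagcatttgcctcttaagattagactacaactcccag
Cplx1: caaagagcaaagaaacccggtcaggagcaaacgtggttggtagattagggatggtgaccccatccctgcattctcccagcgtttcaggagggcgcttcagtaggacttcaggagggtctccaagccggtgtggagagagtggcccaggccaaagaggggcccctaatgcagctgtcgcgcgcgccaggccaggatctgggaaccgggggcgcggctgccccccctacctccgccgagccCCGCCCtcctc

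The Rab3b window held 4 GC boxes, of which a pair overlap, 1 E-box (CANNTG) and 1 TATAAA on either strand, and its GC content was 48.8%. The Rab3c window held 1 GC box, 3 E-boxes and 1 CCAAT at 47.6% GC, and that of Cplx1 1 GC box and 1 E-box at 64.8% GC. A GC box stood in 59.8% of the 87 member promoters and in 32.7% of the 32851 promoters of the table, while an E-box stood in 66.7% and 66.2%. TATAAA was in 4.6% of member promoters and 12.4% of all, CCAAT in 29.9% and 33.8%, and TGACGTCA (the cyclic AMP response element) in 1.15% and 1.55%. The sequence TTCAGCACC within RE1, the element of the neuronal repressor REST, was in 0.301% of all promoters and in no member promoter. All motifs were sought on both strands, and a match describes the letters only.

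The other Rab3 isoforms were not called between the classes. Rab3d was at 130, 153 and 129 CPM in Gip cells and 52.4, 83.4 and 114 CPM in Gcg cells. Rab3a, which overlaps Mpv17l2 by 29 bases on the other strand, was at 3.24, 13.7 and 10.2 CPM in Gip cells and 52.4, 47.2 and 19.8 CPM in Gcg cells, lower in 3 of 3 pools without passing the adjustment (adjusted p = 0.354). Per length, the mean level in Gip cells was 32.7 CPM per kilobase for Rab3d, 17.5 for Rab3b, 4.08 for Rab3a and 0.00476 for Rab3c. In Gcg cells it was 19.8 for Rab3d, 17.9 for Rab3a, 1.84 for Rab3c and 0.83 for Rab3b, and in Pzp cells 22.6, 10.9, 3.19 and 1.81. Rab3d had the highest mean in each class, but in Gcg cells it and Rab3a did not differ beyond the spread between pools, and the order of the others differed between classes.

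**Figure D4:**
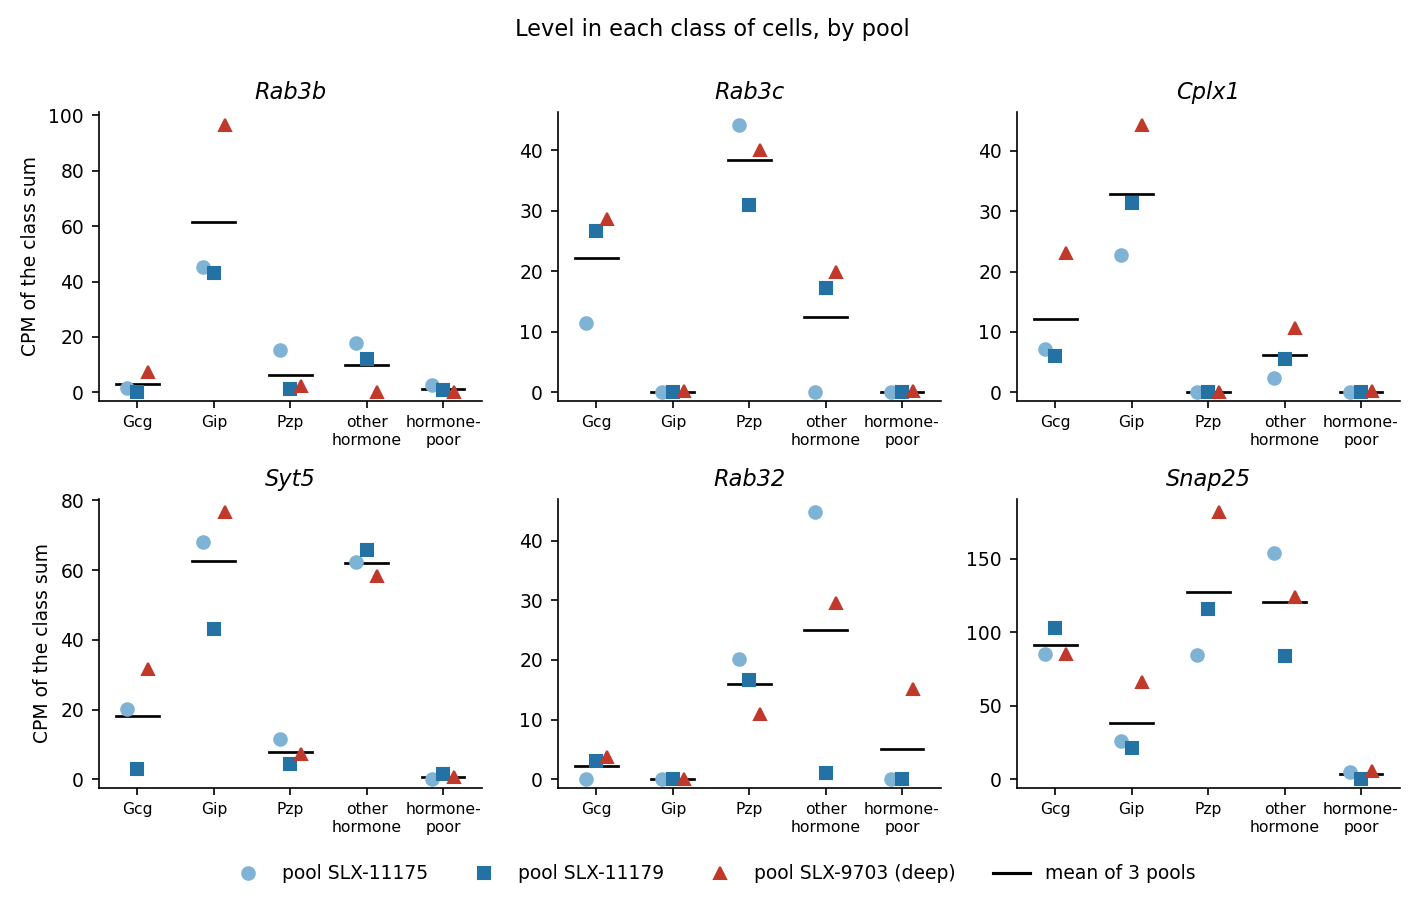
Level of 6 members in the 5 classes (horizontal axis), in CPM of the class sum (vertical axis). Symbols are the 3 pools and bars their mean. Rab3b is highest in Gip cells in every pool, Rab3c and Cplx1 lie at or near 0 in Gip and in Pzp cells respectively, and Snap25 is lowest in hormone-poor cells. Rab3c and Cplx1 also lie at or near 0 in hormone-poor cells, as does Rab3c in other hormone cells of SLX-11175.

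Among the members that came next by unadjusted p, with the same sign in every pool, were Sytl2, Rab27b, Syt13 and Syt5, none of which passed the adjustment. Syt13 was at 42.1, 31.4 and 64 CPM in Gip cells and 91.1, 139 and 137 CPM in Gcg cells (log2 fold change -1.44, SE 0.47, adjusted p = 0.179). Its ranges were separate between the 2 classes. Syt5 had a log2 fold change of 2.08 (SE 0.69, adjusted p = 0.185). Rab27b was at 0, 1.96 and 0 CPM in Gip cells and 20.8, 15.1 and 18.1 CPM in Gcg cells, where its relative Rab27a, which shares 149 bases with the pseudogene Gm27186, was at 23, 6.05 and 27.5 CPM and in Gip cells at 9.71, 31.4 and 18 CPM. Gcg cells had at least 2.16-fold more Rab27b in SLX-11175, 7.7-fold more in SLX-11179 (counting interval 1.27 to 318) and at least 70.4-fold more in SLX-9703 (adjusted p = 0.149 over the 3 pools). The fitted log2 fold change was -6.86 and lay between -12.56 (without SLX-11179) and -1.45 (limma) over the alternatives, of which 3 called it: DESeq2 (adjusted p = 0.00474), no filter on low counts (0.0413) and limma (0.0266). Sytl2, another Rab27 effector, had no read in the Gip sums and was at 7.17, 1.21 and 10.6 CPM in Gcg cells (adjusted p = 0.126).

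The 2 calls were sensitive to single pools and to the class limits. Without SLX-11175 the adjusted p was 0.149 for Rab3b and 0.039 for Rab3c, without SLX-11179 it was 0.245 and 0.0738, and without SLX-9703 0.0796 and 0.222, with the direction kept in each. The log2 fold change of Rab3b was then 4.67, 3.93 and 6.44, in that order. Rab3c also lost its call with the class thresholds doubled (fitted log2 fold change -4.34 in place of -7.17, adjusted p = 0.219) and with cells past 2 thresholds assigned (-4.01, 0.231). Rab3b kept its call in 7 of 17 alternatives, with an adjusted p of 0.000188 to 0.245 over them. The median log2 fold change was -0.13 over the members and -0.24 over all genes, and endocrine markers summed to 1703 to 5943 CPM in Gip cells and 13796 to 24134 CPM in Gcg cells, whose part in these values was not tested.

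The third comparison, Gip cells against Pzp cells, called 4 of 60 members, where 2.86% of all genes were called (1.1% higher and 1.76% lower in Gip cells). Cplx1 and Syt5 were higher in Gip cells, and Rab3c and Rab32 were lower. Complexin 1 binds the assembled SNARE complex, Syt5 is a calcium-binding synaptotagmin, and Rab32 is a Rab of lysosome-related organelles and mitochondria that only shares its prefix with Rab3. At an unadjusted p under 0.05 there were 12 members and 1359 of all genes.

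Cplx1 (ENSMUSG00000033615, chr5:108518554-108550024, minus strand) was at 22.7, 31.4 and 44.3 CPM in Gip cells. Not a single read was found in the 64 Pzp cells of the 3 pools, although the deep Pzp sum alone held 58925336 reads. Gip cells were at least 7.93-fold, 24.2-fold and 1312-fold higher in the 3 pools, with 3 reads per sum as the floor (adjusted p = 0.00129). In the deep pool 1 of 10 Gip cells gave 76.1% of the Cplx1 reads. Its relative Cplx2 was abundant in all classes, at 191, 72.6 and 107 CPM in Gip cells and 65.3, 91.7 and 66.6 CPM in Pzp cells. Neither class was without Cplx2.

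Syt5 (ENSMUSG00000004961, chr7:4539765-4547541, minus strand) was at 68, 43.2 and 76.7 CPM in Gip cells. In Pzp cells it was at 11.5, 4.37 and 7.29 CPM. All Gip sums were above all Pzp sums, with a log2 fold change of 3.13 (SE 0.72, adjusted p = 0.0289), while the other hormone cells were at 62.4, 65.9 and 58.2 CPM. Rab3c was at 44.2, 31 and 40 CPM in Pzp cells against its near absence in Gip cells, at least 4.58-fold and 5.33-fold higher in the shallow pools and 232-fold in the deep pool, with a counting interval of 64.1 to 1915 (adjusted p = 0.00179). Rab32 (chr10:10545002-10558265, minus strand) was at 20.2, 16.6 and 11 CPM in Pzp cells and 0, 0 and 0.0861 CPM in Gip cells, the last from 1 read (adjusted p = 0.0485). Pzp cells were at least 2.09-fold and 2.85-fold higher in the shallow pools. In the deep pool the ratio was 128, with a counting interval of 22.9 to 5058, and 1 of the 28 deep Pzp cells, at 226 CPM, gave 54.8% of the Rab32 reads.

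Among the next by unadjusted p were Sytl2, Rab3b, Snap25 and Unc13b. Snap25 was at 25.9, 21.6 and 66.5 CPM in Gip cells and 84.5, 116 and 182 CPM in Pzp cells (log2 fold change -1.71, SE 0.51, adjusted p = 0.0929). Rab3b was at 15.4, 1.31 and 2.43 CPM in Pzp cells (log2 fold change 3.78, SE 1.11, adjusted p = 0.0895). Unc13b (Munc13-2) was at 58.3, 129 and 27.1 CPM in Gip cells and 25.9, 20.5 and 16 CPM in Pzp cells (1.66, SE 0.62, adjusted p = 0.201), and Sytl2 at 3.84, 2.18 and 13.2 CPM in Pzp cells with no read in Gip cells (adjusted p = 0.0781). Gip cells thus lay below Pzp cells in every pool for Snap25, without passing the adjustment.

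Cplx1 kept its call without either shallow pool (adjusted p = 0.00638 and 0.0107) and had 0.0772 without SLX-9703, and Rab3c likewise (0.0152, 0.0254 and 0.0772). Rab3c was also not called with thresholds doubled (0.085) or with cells past 2 thresholds assigned (0.0785). Syt5 was not called without SLX-11175 (0.144), SLX-11179 (0.149) or SLX-9703 (0.234), nor was Rab32 (0.185, 0.231 and 0.323), which kept its call in 7 of 17 alternatives. Markers of goblet cells were high in Pzp cells, where 4 of 5 had reads and their sum was 3452 to 3870 CPM against 16.2 to 228 CPM in Gip cells and 323 to 586 CPM in Gcg cells, with Clca1 at 0 in all 3 classes and Muc2 and Zg16 at 0 in Gip cells. Their part in the members' differences was not tested.

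The fourth comparison, Gcg cells against Pzp cells, found 1 called member of 60, Cplx1, where 0.269% of all genes were called (0.155% higher and 0.114% lower in Gcg cells). The median log2 fold change was 0.02 over the members and 0.01 over all genes. At an unadjusted p under 0.05 there were 4 members and 418 of all genes. Cplx1 was at 7.17, 6.05 and 23 CPM in Gcg cells, at least 2.51-fold, 4.66-fold and 680-fold above Pzp cells, which had no read (adjusted p = 0.017). In the deep pool 1 of 19 Gcg cells gave 95.7% of the Cplx1 reads. With limma on mean log2(CPM + 1) over cells the log2 fold change was 0.67 in place of 11.49 (adjusted p = 0.828). Leaving out SLX-11175, SLX-11179 or SLX-9703 gave Cplx1 an adjusted p of 0.0584, 0.0845 and 0.737, so that no member was called with any pair of pools. Calls over all genes fell from 26 to 14, 9 and 14 in these fits.

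The next by unadjusted p were Rab32, Snap29, Vamp8, Rab37 and Syt11, each with an adjusted p of 0.999. Vamp8, a VAMP of endosomes and of granules in exocrine and blood cells, was at 30.1, 30.2 and 50.8 CPM in Gcg cells and 79.7, 75.1 and 71.8 CPM in Pzp cells, with a log2 fold change of -1.07 (SE 0.48). Rab37, a Rab of secretory granules, was at 71, 59.8 and 78.7 CPM in Gcg cells and 30.7, 17.5 and 55.4 CPM in Pzp cells, a log2 fold change of 1.17 (SE 0.62). Rab32 was at 0, 3.02 and 3.81 CPM in Gcg cells, Snap29 at 9.33, 13.3 and 12.7 CPM against 0, 0.873 and 3.78 CPM in Pzp cells, and Syt11 at 3.59, 6.65 and 8.14 CPM against 9.6, 24 and 19.6 CPM.

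The remaining members of the regulated secretion core did not part the hormone classes by the test. Vamp2 was at 35.2, 29.6 and 45.1 CPM in Gcg cells, 35.6, 74.5 and 101 CPM in Gip cells and 41.3, 62.9 and 62.2 CPM in Pzp cells. Stx1a was at 23.7, 45.3 and 41.1 CPM in Gcg cells, 38.9, 1.96 and 71.5 CPM in Gip cells and 32.7, 24 and 66.2 CPM in Pzp cells. Its widest spread was between the pools of the Gip class. Unc13a, which overlaps Colgalt1 on the other strand, was at 15.1, 16.9 and 12 CPM in Gcg cells, 22.7, 3.92 and 10.2 CPM in Gip cells and 18.2, 40.2 and 26.5 CPM in Pzp cells. Stxbp5 (tomosyn), an inhibitor of SNARE assembly, was at 86.8, 25.4 and 37.6 CPM, 22.7, 9.81 and 58.2 CPM, and 54.7, 35.4 and 46.3 CPM in the same order of classes. Gcg cells were lowest for Vamp2 in every pool, and for the other 3 genes no class was highest or lowest in all pools.

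Single cells of the deep pool showed how the isoforms were shared out. At 10 CPM or more, Rab3b alone was found in 5 of 10 Gip cells, and no Gip cell had Rab3c. Among 19 Gcg cells, 8 had Rab3c alone and 2 had both, and none had Rab3b alone. Among 28 Pzp cells, 15 had Rab3c alone, 1 Rab3b alone and 1 both. In all 3 classes there were cells with neither, 5, 9 and 11 in the order Gip, Gcg and Pzp.

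**Figure D5:**
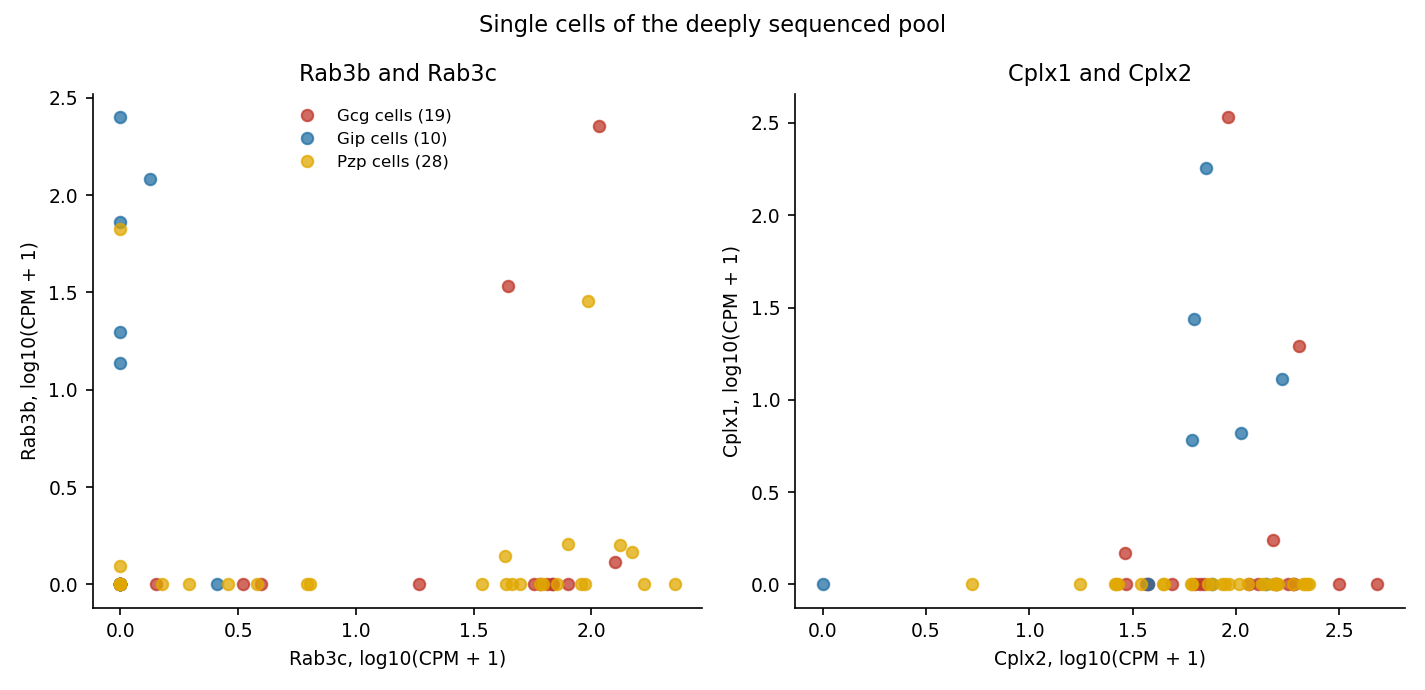
Single cells of the deep pool SLX-9703, with Rab3b against Rab3c (left) and Cplx1 against Cplx2 (right), all as log10(CPM + 1) of mouse gene reads. Each point is 1 of 19 Gcg, 10 Gip or 28 Pzp cells. Gip cells with Rab3b lie near 0 for Rab3c, and all Pzp cells lie at 0 for Cplx1.

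Cplx1 levels came from few cells. In the deep pool 4 of 19 Gcg cells had a read of Cplx1, and 1 of them, at 340 CPM, gave 95.7% of the reads. In Gip cells it was 5 of 10, with 76.1% of the reads from 1 cell at 179 CPM, and 7 of 20 other hormone cells also had a read. Cplx2, in contrast, had a read in 19 of 19 Gcg, 9 of 10 Gip and 28 of 28 Pzp cells. With every cell thinned to 20000 reads, Cplx1 was seen in 5.66% of the 53 Gcg cells (exact Clopper-Pearson 95% interval 1.18 to 15.7%) and 20% of the 25 Gip cells (6.83 to 40.7%). In Pzp cells it was 0 of 64, with an exact upper limit of 5.6% (4.69% by counting 3 cells of the total), which limits cells with a read at this depth and not cells that express the gene. Without thinning the shares were 15.1%, 32% and 0%.

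Rab3c was seen in more cells than Cplx1 in the Gcg and Pzp classes, and Rab3b in the Gip class. After thinning, Rab3c was seen in 39.1% of Pzp cells (27.1 to 52.1%), 18.9% of Gcg cells (9.44 to 32%) and 0 of 25 Gip cells (exact upper limit 13.7%, or 12% by counting 3 cells). Without thinning these were 59.4%, 39.6% and 8.0%. Rab3b was seen in 36% of Gip cells (18 to 57.5%), 3.77% of Gcg cells (0.46 to 13%) and 6.25% of Pzp cells (1.73 to 15.2%), and in 48%, 9.43% and 17.2% without thinning. A single Gcg cell gave 85% of the Rab3b reads of its class. In hormone-poor cells, after thinning, Rab3c was seen in 0 and Rab3b in 1 of 48. The intervals cover the counting of cells only.

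Snap25 was set against Snap23 cell by cell. In the deep pool it reached 10 CPM in 16 of 19 Gcg, 6 of 10 Gip and 28 of 28 Pzp cells, and no cell of these classes had Snap23 at that level without it, while 3 Gcg and 4 Gip cells had neither. Among 10 hormone-poor cells, 3 had Snap23 alone and 1 Snap25 alone. The median of Snap25 in deep cells was 262 CPM in Pzp cells, 81.3 CPM in Gcg cells and 18.3 CPM in Gip cells, the same order as the class sums of that pool. Rab27a and Rab27b at 10 CPM or more met in 5 of 19 Gcg cells and 2 of 28 Pzp cells, and none of the 10 Gip cells had Rab27b at that level.

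In the other hormone cells, which are low in Gcg, Gip and Pzp, Syt7 was at 82.4, 104 and 91.1 CPM, above the 16.5 to 48.2 CPM of the 9 sums of the 3 named classes in every pool. Snap25 was at 154, 84.2 and 124 CPM, levels like those of Gcg and Pzp cells. Rab3b was at 17.7, 11.9 and 0.0526 CPM, with the deep pool apart from the others. These values are a description, since no contrast with this class was fitted.

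Syt4 and Unc13c differed widely between the pools and were called in none of the 4 comparisons, with unadjusted p from 0.174 to 0.976. Unc13c was lower in the hormone classes than in hormone-poor cells in 3 of 3 pools (log2 fold change -0.87, SE 0.61, adjusted p = 0.405). Syt4, a synaptotagmin of dense-core granules whose exons share 566 bases with the antisense gene Gm26658, was at 23 to 101 CPM in all 10 sums of the shallow pools, hormone-poor cells included (73.2 and 101 CPM), and at no more than 0.172 CPM in the 5 sums of the deep pool. Unc13c (Munc13-3) was at 7.85 to 42.4 CPM in the shallow and 0.807 to 2.58 CPM in the deep sums. Pool, mouse and depth cannot be told apart here.

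Around these families, a list of 53 further genes of granules, tethers and SNARE partners was read in the same fits. Between hormone-poor cells and the hormone classes, 8 of 43 tested were higher in the hormone classes and 2 lower, against 6.62% and 5.51% of all genes. Among those higher were the synapsins Syn2 (adjusted p = 0.00116) and Syn1 (adjusted p = 0.00549), Rph3al, a Rab3 and Rab27 effector (log2 fold change 3.89, SE 0.74, adjusted p = 0.00217), Rimbp2, which binds RIM (2.70, SE 0.51, adjusted p = 0.00225), and Ptprn2, a granule membrane protein (4.21, SE 0.85, adjusted p = 0.00367), with Syp, Pclo and Ica1 also called. Mlph (melanophilin), a Rab27a effector of pigment cells, and Syngr2 were lower. Among the hormone classes Baiap3, a Munc13 relative of dense-core granule traffic, was the only gene called of 39 tested, in the comparisons of Gip with Pzp cells (2.86% of all genes called) and of Gcg with Pzp cells (0.269%). It was at 71.2, 169 and 295 CPM in Gip cells, 53.1, 15.7 and 28.5 CPM in Gcg cells and 2.88, 1.75 and 2.16 CPM in Pzp cells, with a log2 fold change of 6.50 (SE 0.77, adjusted p = 0.00019) for Gip and 3.92 (SE 0.72, adjusted p = 0.0312) for Gcg over Pzp cells. Between Gip and Gcg cells edgeR called 0 of 39, against 1.12% of all genes, and 7 had an unadjusted p under 0.05.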

How the data were processed

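Single cells were sequenced by Smart-seq2, and the authors deposited raw read counts per gene, which the submitters' processing notes tie to GSNAP, HTSeq (0.5.3p3) and mm10. The annotation release and the strand setting are not given in the sources used here, so genes that overlap on opposite strands cannot be told apart. Rows that name no gene held 77.59% of all counts and spike-ins 5.341%. Both were left out, as were 4 columns that match no sample label. Symbols, coordinates and exon lengths came from GENCODE M21 and promoters from RefSeq GRCm38.p6.

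Cells with 20000 or more reads on mouse genes and at most 20% mitochondrial reads were classed by Gcg (10000 CPM), Gip (10000 CPM) and Pzp (100 CPM), and the rest by the sum of 9 hormones (10000 CPM). Cells were sorted singly and no doublet caller was run. Counts were summed per pool and class (3 cells or more) and tested with edgeR 4.0.16 (R 4.3.3; TMM, filterByExpr, quasi-likelihood, Benjamini-Hochberg over all genes, threshold 0.05). One fit held 9 sums of 3 classes and another 15 sums of 5 classes, both with pool as a block, since classes of a pool are taken to share an animal. Deviations from class means correlated at 0.0237 to 0.409 between sums of the same pool (9 pairs) and at -0.201 to 0.0766 between pools (18 pairs). The labels do not say which mouse gave which pool, so p-values measure the spread between pools. CPM of sums use the TMM library size, and CPM of cells the plain total. Bounds take 3 reads per sum as the floor, or over the summed reads where said. Counting intervals of ratios treat each read as independent, although the protocol has no molecular identifiers, and cover counting error only. Shares of cells were read after thinning to 20000 reads, with exact 95% intervals that cover counting error only.

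Named were members called in a comparison, the next 5 by unadjusted p with 1 sign in all pools, the 2 highest of each family per length and a core of regulated secretion genes. Stx11, Unc13d, Syt4, Unc13c, Snap23 and Rab27b were singled out after their values were seen. The members and lists were chosen with earlier results of these data known. Alternatives used limma 3.58.1, DESeq2 1.42.0, other limits, other cell weights and left-out pools, and 2 were added after the data were seen. Tables were made with Python 3.11.15, numpy 2.4.6, pandas 2.3.3 and scipy 1.17.1. Results for 2 members are not reported here, although they are part of the counts.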

Additional observations from a re-analysis of the deposited data

Results flagged for a closer look

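Among the 10 Gip cells of the deep pool, 5 members were examined for a single cell far from the rest, and 4 had one by Dixon's test at the 95% level, which chance gives in about 1 of 20 groups of normal values. The values are sparse counts, for which that rate does not hold: Rab3c rests on 2 reads and Rab32 on 1 read. Cplx1 reached 179 CPM in 1 cell and 26.5 CPM in the next. Rab3b reached 251 CPM in 1 cell and 120 CPM in the next. Rab3c was at 1.58 CPM in 1 cell and 0.331 CPM in the next, and Rab32 at 0.427 CPM in 1 cell and 0 in the others, both far below the levels of Pzp cells.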

How the results depend on the processing

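Each alternative was run 1 at a time. Between Gcg and Pzp cells the 1 call became 0 with limma on mean log2(CPM + 1) over cells, where calls over all genes rose from 26 to 95. It was 0 without each pool, where calls over all genes fell to 14 (without SLX-11175), 9 (SLX-11179) and 14 (SLX-9703). It was also 0 with cells thinned to 20000 reads, where 30 members were tested and Cplx1 was not among them. Calls over all genes were 72 in that setting. Between Gip and Gcg cells the 2 calls became 8 with DESeq2 and 7 with limma, where calls over all genes rose from 108 to 548 and 1274. They became 1 with no replicate block (103 of all genes), a minimum of 50000 reads (60) and thresholds halved (111). The count was also 1 with hormone reads left out (104) and with a Gip threshold of 100000 CPM (86). It was 0 with thresholds doubled (81) or cells past 2 thresholds assigned (83). Without SLX-11175, SLX-11179 and SLX-9703 it was 1, 0 and 0, with 48, 52 and 39 of all genes. With thinning neither Rab3 gene was tested and 1 other member, Snap25, was called, with 186 of all genes. Between Gip and Pzp cells the 4 calls became 9 with DESeq2 and 13 with limma, where calls over all genes rose from 276 to 797 and 1988, and 2 with a minimum of 50000 reads or cells past 2 thresholds assigned, and 1 with thresholds doubled, with 0 to 2 without a pool. With thinning it was 1, which was again Snap25. Calls over all genes are not given here for the settings that lowered this count, so the falls are not read as a result about the members. Between the hormone classes and hormone-poor cells the 13 calls became 21 with no filter on low counts (17 higher, 4 lower) and 27 with limma, where calls over all genes rose from 1384 to 2641 and 3306, with 6 to 11 without a pool. Leaving the replicate block out gave 1 call between Gcg and Pzp cells, 1 between Gip and Gcg cells, 4 between Gip and Pzp cells and 13 against hormone-poor cells. Without thinning, the share of cells with a read of Rab3c was 39.6% in Gcg and 59.4% in Pzp cells, and that of Rab3b 17.2% in Pzp cells. Unc13b between Gip and Pzp cells turned to -0.00 with limma (main 1.66), and the cause was not tested. Over 35 named values and 606 alternative values, 520 kept direction and side of the threshold, 68 lost it, 17 gained it and 1 turned. Over the alternatives the median log2 fold change of all genes ranged from -0.57 (limma) to -0.10 (no replicate block) between Gip and Gcg cells and from -0.67 to -0.06 between Gip and Pzp cells. The shallow pools, with sums from 420453 reads, limit what can be said of members under a few CPM.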
